A study of Mus musculus with 12 samples.

Results

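Procr, Thbd, Serpine2, Tfpi, F5, F10, Plau and Plaur encode proteins that control thrombin, protein C and plasmin, and they are 8 of the 35869 genes in the mouse count table. They were picked by name from earlier results on the same libraries, in which some of them differed between the groups; their place in the table is therefore described here, and the adjusted p-values below say where a gene lies in the fit of all genes and are not independent support. The RNA-seq libraries came from bone marrow haematopoietic stem cells (HSCs) sorted by surface CD41, a platelet integrin subunit, in a study of RUNX1 in megakaryocyte-primed stem cells. RUNX1 is a transcription factor of blood cells. There were 4 groups of 3 libraries, namely CD41pos KO (labels 1, 2 and 3), CD41pos WT (labels 1, 3 and 4), CD41neg KO (labels 1, 2 and 3) and CD41neg WT (labels 2, 3 and 4). KO mice were MxCre1+/-,RUNX1f/f and WT mice were MxCre1-/-,RUNX1f/f, so that both carried the floxed Runx1 alleles. All mice of both genotypes had received 4 poly(I:C) injections and were used 4 weeks later. The Mx1 promoter that drives Cre answers to interferon in many tissues, so deletion is not limited to HSCs. The labels give no age or sex, and they do not say whether each library came from a separate mouse or from pooled mice, so p-values measure the spread between libraries, which may be technical.

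Thrombin is made from its precursor by factor Xa, the active form of the F10 product, with factor Va, the active form of the F5 product, as cofactor. When thrombin binds thrombomodulin, the Thbd product, it activates protein C, which the endothelial protein C receptor, the Procr product, holds at the cell surface, and activated protein C then cuts factor Va. Tfpi encodes an inhibitor of tissue factor and factor Xa, and Serpine2 encodes protease nexin-1, an inhibitor of thrombin, urokinase and plasmin. Plau encodes urokinase, which activates plasminogen, and Plaur encodes its receptor. In mouse marrow the Procr product is a surface marker of long-term HSCs, and megakaryocytes carry factor V into platelets.

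The 12 libraries held 44108035 to 58946457 counts over 21973 to 27097 detected genes. Levels are given as CPM, the usual count rate per library total, after TMM scaling. The stem cell list of 10 genes, which includes Procr, summed to between 674 and 2129 CPM in every library, and Itga2b, the CD41 gene used for the gate, averaged 1117 CPM in CD41pos KO and 620 CPM in CD41pos WT libraries, against 247 CPM in CD41neg KO and 103 CPM in CD41neg WT libraries. Runx1 itself averaged 326 ± 55.8 CPM in CD41pos KO against 149 ± 9.22 CPM in CD41pos WT libraries, and 164 ± 7.03 CPM in CD41neg KO against 80.0 ± 12.9 CPM in CD41neg WT libraries (SD, n = 3 each). The gene total counts all exons, and which exons were deleted is not stated in the labels, so it does not check the deletion. The WT libraries CD41pos 1, CD41pos 4, CD41neg 2 and CD41neg 4 carry the library numbers 1, 5, 6 and 2, below those of all other libraries, and stood apart, with the immediate-early gene Nr4a1 at 18.6 to 27.7 CPM against 237 to 396 CPM in the other 8. Xist was at 318 and 308 CPM in the KO 2 libraries of the CD41pos and CD41neg gates and at 0.842 to 1.00 CPM in the other 4 KO libraries, with the Y-linked Ddx3y the reverse, at 0.161 and 0.155 CPM against 83.4 to 103 CPM. Among WT libraries Xist was at 113 to 339 CPM, and Ddx3y lay between 0 and 38.9 CPM, with 22.4 CPM in CD41pos WT 4 but 0 in CD41neg WT 4. CD41pos WT 3 and 4 and CD41neg WT 2 and 3 held both genes at 11.2 CPM or more, and no KO library did.

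In TPM, the deposited unit that allows for gene length, Procr had the highest mean of the 8 genes over the 12 libraries, 50.5 TPM, followed by Thbd with 27.3 TPM and Serpine2 with 19.6 TPM. Plaur averaged 10.8 TPM, F5 5.69 TPM, Tfpi 5.46 TPM and F10 3.23 TPM. Plau was close to undetected at 0.133 TPM, with 0 to 43 counts per library. The group means of a gene differed least for Plaur, by 1.154-fold between highest and lowest in TPM, and most for Serpine2 and F10, by 31.3-fold and 43.3-fold. All 8 genes passed the filter on low counts; Plau did so at a mean of at most 0.391 CPM in any group.

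**Figure D1:**
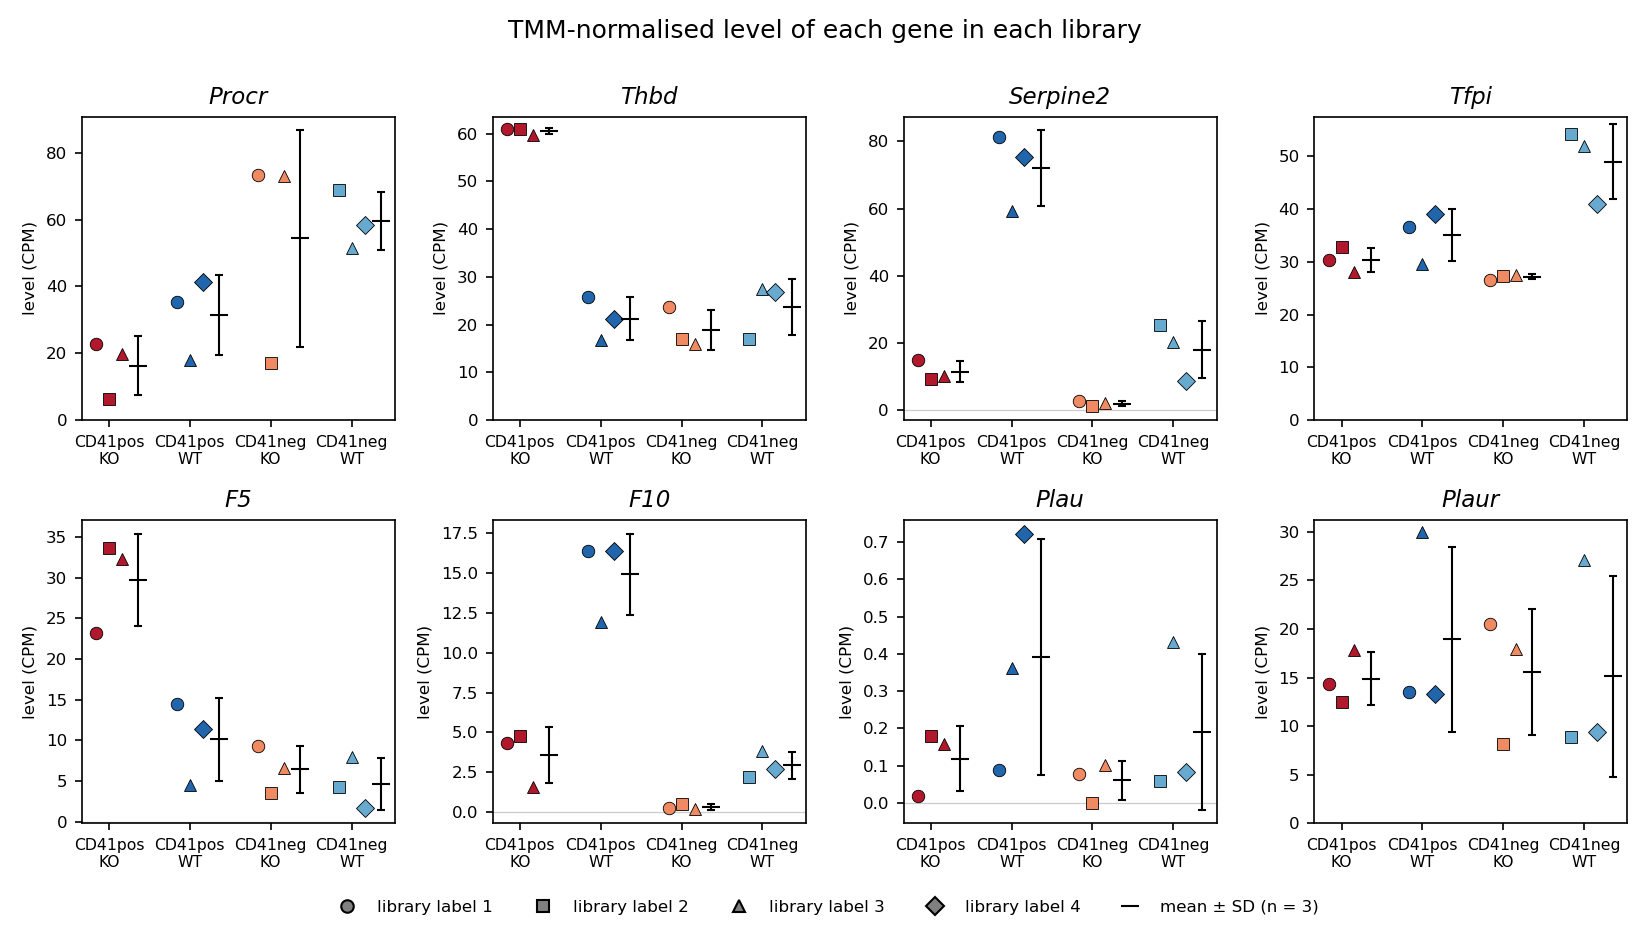
Levels in CPM (vertical axis, a scale of its own for each gene) of the 8 genes in each of the 12 libraries, by group; symbols give the library label, bars the group mean ± SD. Thbd lies at 59.8 to 61.0 CPM in the 3 CD41pos KO libraries and at 15.9 to 27.5 CPM in the other 9; Serpine2 and F10 are highest in CD41pos WT and lowest in CD41neg KO libraries.

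KO and WT were first compared within each gate. At an adjusted p below 0.05, 3 of 8 passed in CD41pos cells, against 17.1% of the 19395 genes tested. Thbd was higher in KO (1 of 8, against 9.79% of all genes), and Serpine2 and F10 were lower (2 of 8, against 7.27%). In CD41neg cells 3 of 8 passed, against 7.82% of all genes tested; Serpine2, Tfpi and F10 were lower in KO (against 3.97%), and 0 of 8 were higher (against 3.85%). The 8 genes had a median log2 fold change of -0.65 in CD41pos cells, where all genes tested had -0.08, and of -0.59 in CD41neg cells, where all genes tested had -0.03. These contrasts were among the results known when the genes were picked, and nothing is read from the shares. All tests in the text are two-sided edgeR quasi-likelihood tests with Benjamini-Hochberg adjustment over all genes tested, unless another tool is named. The calls in both gates were kept when any 1 of the 12 libraries was left out.

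**Figure D2:**
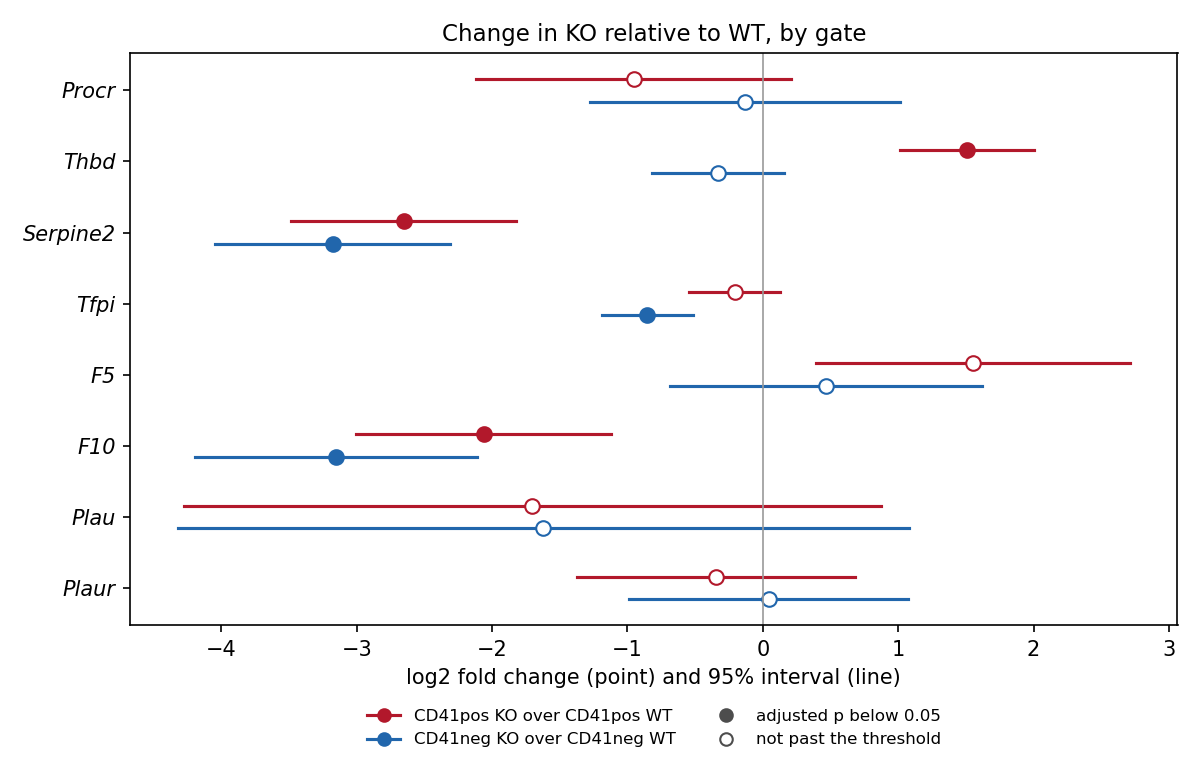
Log2 fold change of KO over WT (horizontal axis; points) with its 95% interval (lines) for each gene, in CD41pos cells (upper line of each pair) and CD41neg cells (lower line). Filled points have an adjusted p below 0.05. Serpine2 and F10 lie left of 0 in both gates, and Thbd lies at 1.51 in CD41pos and -0.33 in CD41neg cells.

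The 2 gates were then compared within each genotype. In KO mice 3 of 8 genes passed, against 2.79% of all genes tested; Thbd, Serpine2 and F10 were higher in CD41pos than in CD41neg cells (against 1.56%), and 0 of 8 were lower (against 1.23%). The KO labels were taken to pair the libraries across the gates. The labels do not state this, and it was read from correlations between these same libraries. With the label as a block 5 of the 7 genes that could be tested passed, against 12.4% of all 17969 genes tested in that fit. Of the 5, 4 were higher (F5 in addition) and 1 was lower (Procr), and Plau did not pass the low-count filter. In WT mice 2 of 8 passed, against 5.59% of all genes tested; Serpine2 and F10 were higher in CD41pos cells (against 2.72%), and 0 of 8 were lower (against 2.87%). Leaving out the 4 WT libraries that stood apart leaves 1 WT library per gate, whose spread is then taken from the KO groups; in that fit neither passed, and Tfpi alone of the 8 did, lower in CD41pos WT cells, against 21% of all genes tested. The median log2 difference of the 8 genes between the gates was 1.32 in KO and 0.68 in WT mice, beside -0.02 and 0.01 over all genes tested.

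Procr, the receptor that presents protein C, was at 22.7, 6.24 and 19.9 CPM in CD41pos KO libraries 1, 2 and 3, against 35.2, 18.1 and 41.3 CPM in CD41pos WT libraries 1, 3 and 4. In the other gate it was at 73.3, 17.0 and 73.0 CPM in CD41neg KO libraries 1, 2 and 3, against 68.9, 51.6 and 58.5 CPM in CD41neg WT libraries 2, 3 and 4. KO library 2 was the lowest of its group in both gates, and the KO and WT ranges overlapped in both. The log2 fold change of KO over WT was -0.95 ± 0.54 (SE; adjusted p = 0.218) in CD41pos cells and -0.13 ± 0.53 (adjusted p = 0.898) in CD41neg cells. The CD41neg interval ran from -1.28 to 1.01, so these libraries do not exclude a change of either sign within it.

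Between the gates, Procr was lower in the CD41pos than in the CD41neg library of every KO label, with log2 ratios of -1.69, -1.45 and -1.88 for KO 1, 2 and 3. CD41neg KO 2, at 17.0 CPM, lay within the CD41pos range, so the groups overlapped, and without the pairing the difference was -1.74 ± 0.54 with an adjusted p of 0.133. With the KO label as a block it was -1.69 ± 0.12 and passed (adjusted p = 0.0017). Of the 12 unpaired fits that left out 1 library, only that without CD41neg KO library 2 passed (-2.17, adjusted p = 0.0337). The highest adjusted p of these fits was 0.401, without CD41neg KO library 3. Without both KO 2 libraries, a setting chosen after seeing the data, the difference passed (-1.78, adjusted p = 0.0439). In WT mice all CD41pos libraries lay below all CD41neg libraries, as 22.8% of all genes did in one direction or the other, and the difference of -0.92 ± 0.53 did not pass (adjusted p = 0.346).

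Thbd, the thrombin receptor that turns the enzyme towards protein C, was at 61.0, 60.9 and 59.8 CPM in the 3 CD41pos KO libraries, against 25.7, 16.8 and 21.3 CPM in the CD41pos WT libraries. It was at 23.6, 17.0 and 15.9 CPM in CD41neg KO libraries, against 16.9, 27.5 and 26.8 CPM in CD41neg WT libraries. The 3 CD41pos KO libraries were above every other library. KO and WT of the CD41pos gate did not overlap for 44.3% of all genes tested, and the gates of KO mice for 29.9%. The share of genes with a group above all other libraries was not computed. Thbd rose 2.85-fold in CD41pos KO cells relative to CD41pos WT cells (log2 fold change 1.51 ± 0.23, adjusted p = 0.0030), and in KO mice it was 3.21-fold higher in CD41pos than in CD41neg cells (1.68 ± 0.23, adjusted p = 0.0021). The KO libraries of the CD41neg gate overlapped the WT ones (-0.33 ± 0.22, adjusted p = 0.370), and so did the gates in WT mice (-0.16 ± 0.22, adjusted p = 0.735).

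The difference of the KO effect between the gates was tested as an interaction. For Thbd it was 1.84 ± 0.32 on the log2 scale, with an unadjusted p of 8.0e-05, and it did not pass over all genes (adjusted p = 0.328). By edgeR no gene of the table passed this interaction (0% of the 19395), 1093 genes (5.64%) had an unadjusted p below 0.05, and DESeq2 called 67 genes. Thbd was among the genes that DESeq2 called (1.87, adjusted p = 0.00015), while by edgeR leaving out any 1 library gave adjusted p-values from 0.130 to 0.891. Without the 4 WT libraries that stood apart the Thbd interaction was 2.50. That value rests on 1 WT library per gate, and CD41pos WT 3, at 16.8 CPM, was the lowest of its group. Of the 8 genes Thbd and Tfpi had an unadjusted interaction p below 0.05, which makes 2 of 8.

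Serpine2, the thrombin and urokinase inhibitor, was at 15.0, 9.21 and 10.1 CPM in CD41pos KO libraries, against 81.2, 59.3 and 75.4 CPM in CD41pos WT libraries. In CD41neg cells it was at 2.66, 1.22 and 2.09 CPM in KO, against 25.2, 20.2 and 8.60 CPM in WT libraries. The groups did not overlap in either gate, as was so for 44.3% and 35.5% of all genes tested. Serpine2 was 6.29-fold lower in CD41pos KO cells (log2 fold change -2.65 ± 0.38, adjusted p = 0.0027) and 9.06-fold lower in CD41neg KO cells (-3.18 ± 0.40, adjusted p = 0.0022), each against WT cells of the same gate. The interaction was 0.53 ± 0.52 (adjusted p = 0.921), with an interval from -0.60 to 1.65.

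Between the gates Serpine2 was higher in CD41pos cells by a log2 difference of 2.52 ± 0.39 in KO mice (adjusted p = 0.0045), with CD41pos over CD41neg ratios of 5.63, 7.55 and 4.83 for KO labels 1, 2 and 3, and as for 29.9% of all genes the gates did not overlap. In WT mice the difference was 2.00 ± 0.37 (adjusted p = 0.0107), and 1.48 (adjusted p = 0.0794) without the 4 WT libraries that stood apart. In TPM it averaged 9.47 ± 2.49 in CD41pos KO and 53.1 ± 16.1 in CD41pos WT, and 1.70 ± 0.66 in CD41neg KO and 14.1 ± 7.45 in CD41neg WT libraries (SD, n = 3 each). The levels thus fell in the order CD41pos WT, CD41neg WT, CD41pos KO, CD41neg KO, and the only neighbours in it whose libraries overlapped were CD41pos KO, at 9.21 to 15.0 CPM, and CD41neg WT, at 8.60 to 25.2 CPM.

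F10, the precursor of factor Xa, was at 4.36, 4.78 and 1.56 CPM in CD41pos KO libraries, against 16.4, 11.96 and 16.4 CPM in CD41pos WT libraries. In CD41neg cells it was at 0.274, 0.516 and 0.187 CPM in KO libraries, from 14, 30 and 11 counts, against 2.18, 3.86 and 2.73 CPM in WT libraries. As for Serpine2, the genotypes did not overlap in either gate. F10 was 4.18-fold lower in CD41pos KO cells (log2 fold change -2.06 ± 0.43, adjusted p = 0.0104) and 8.90-fold lower in CD41neg KO cells (-3.15 ± 0.48, adjusted p = 0.0052). Without the 4 WT libraries that stood apart, the CD41pos value was -1.65 and did not pass (adjusted p = 0.0736), and on log2(TPM + 1) values, which understate changes of low genes, the CD41neg value was -1.19 (limma, adjusted p = 0.0502).

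F10 was higher in CD41pos than in CD41neg cells by 3.44 ± 0.48 on the log2 scale in KO mice (adjusted p = 0.0025), where the ratio was 15.9, 9.28 and 8.35 for KO labels 1, 2 and 3. In WT mice the difference was 2.35 ± 0.44 (adjusted p = 0.0107), and 1.56 (adjusted p = 0.236) without the 4 WT libraries that stood apart. Serpine2 and F10 were the most alike pair among the 7 genes with a mean of at least 5 CPM: their library values, as log2(CPM + 1) centred on each gene's mean, differed by a root mean square of 0.66 over the 12 libraries. The next pairs were Tfpi with Plaur at 0.68 and Thbd with F5 at 0.69.

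The windows around the start sites of Serpine2 and F10, the pair lower in KO cells of both gates, and of F5, which lay above WT in CD41pos KO cells, are given for their RUNX letters (RefSeq, GRCm38.p6; 250 bases before to 50 after the start, 5′ to 3′ on the gene's strand). Capitals mark TGTGGT or TGCGGT on either strand; the Serpine2 window (chr1:79858616-79858915, minus strand) holds TGCGGT at position -110 from the start, the F5 window (chr1:164151585-164151884, plus strand) holds TGTGGT on the opposite strand from position 0, and the F10 window (chr8:13037058-13037357, plus strand) holds neither.
Serpine2: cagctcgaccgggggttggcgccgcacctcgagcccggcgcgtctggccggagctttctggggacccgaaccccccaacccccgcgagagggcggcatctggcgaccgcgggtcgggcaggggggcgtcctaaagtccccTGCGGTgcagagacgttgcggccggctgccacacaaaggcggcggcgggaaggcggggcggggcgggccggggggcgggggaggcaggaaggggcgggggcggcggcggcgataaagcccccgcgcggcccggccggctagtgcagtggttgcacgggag
F10: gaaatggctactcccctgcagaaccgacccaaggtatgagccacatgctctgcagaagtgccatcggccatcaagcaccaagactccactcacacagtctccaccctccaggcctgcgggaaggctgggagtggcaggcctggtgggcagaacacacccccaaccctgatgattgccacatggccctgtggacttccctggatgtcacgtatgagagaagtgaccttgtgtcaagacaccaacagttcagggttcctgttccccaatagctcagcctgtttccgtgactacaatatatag
F5: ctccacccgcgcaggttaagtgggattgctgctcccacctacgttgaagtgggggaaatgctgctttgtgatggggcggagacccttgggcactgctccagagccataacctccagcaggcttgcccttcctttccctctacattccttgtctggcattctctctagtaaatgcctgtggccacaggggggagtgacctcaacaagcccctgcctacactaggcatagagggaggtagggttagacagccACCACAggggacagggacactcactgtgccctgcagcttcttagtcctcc
These letters stand in 22.4% of all 32851 windows of that length, so a match is a description of the window and not a bound site. Of the 6 genes with a window, Procr, Tfpi and Plaur also held neither run; Thbd and Plau are named only. AGATAA or TGATAA, the letters of GATA factors, stood once in each of the 2 Tfpi windows and in no window of the other 5 genes, against 18.6% of all windows.

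Some granulocyte-lineage genes differed in the same direction as Serpine2 and F10. The 8 neutrophil markers, of which Elane and Mpo, granule enzyme genes of neutrophil precursors, made up 72.4% to 99.6%, summed to 1521 to 3522 CPM in CD41pos KO against 3946 to 5262 CPM in CD41pos WT libraries, and to 369 to 1028 CPM in CD41neg KO against 1783 to 2610 CPM in CD41neg WT libraries. Elane was lower in CD41pos KO cells (-1.45 ± 0.39, adjusted p = 0.0258) and in CD41neg KO cells (-1.74 ± 0.39, adjusted p = 0.0223). For Mpo the CD41pos value was -0.85 ± 0.34 (adjusted p = 0.10) and the CD41neg value, which passed, was -1.55 ± 0.35 (adjusted p = 0.0223). The other 6 markers did not pass in either gate. The median log2 fold change of the 8 markers was -1.91 for KO against WT in CD41pos and -1.83 in CD41neg cells. Between the gates Elane was higher in CD41pos cells of KO (1.98, adjusted p = 0.0183) and of WT mice (1.69, adjusted p = 0.0275), and Mpo was higher in CD41pos KO cells (1.94, adjusted p = 0.0116), with a WT difference of 1.24 that did not pass (adjusted p = 0.0575). The median of the 8 markers, CD41pos over CD41neg, was -0.89 in KO and -0.77 in WT mice, opposite in sign to Serpine2 and F10. S100a8, a gene of mature neutrophils, averaged 13.4 CPM in CD41pos KO and 32.3 CPM in CD41pos WT, and 19.0 CPM in CD41neg KO and 48.4 CPM in CD41neg WT libraries. Their part in the Serpine2 and F10 results was not tested.

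**Figure D3:**
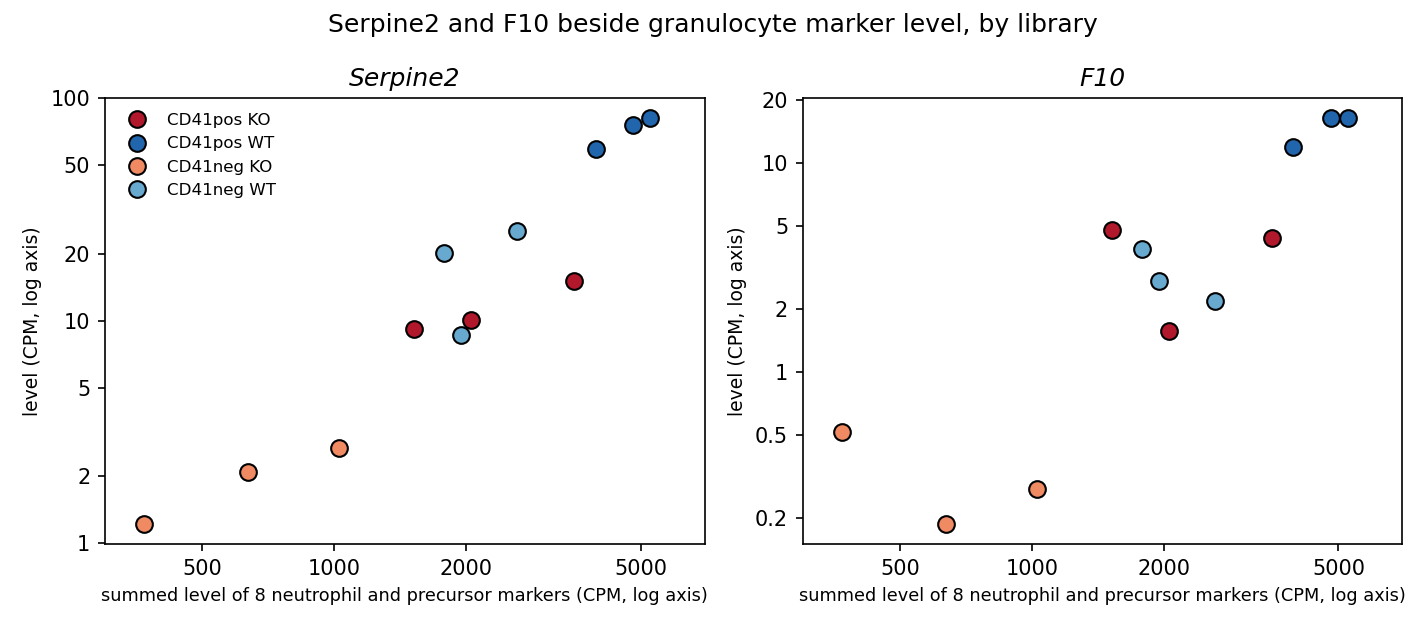
Serpine2 (left) and F10 (right) level in CPM against the summed level of 8 neutrophil and precursor markers in CPM, of which Elane and Mpo made up at least 72.4%, 1 point per library, all axes logarithmic. The CD41neg KO libraries are lowest on both axes, at 369 to 1028 CPM of markers, and the CD41pos WT libraries are highest, at 3946 to 5262 CPM.

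Some markers of other cell types differed with genotype as well. Over all genes tested, 7.27% were lower in CD41pos KO and 3.97% were lower in CD41neg KO cells. The 12 marrow stroma markers summed to 30.1 to 37.5 CPM in CD41pos KO against 215 to 399 CPM in CD41pos WT libraries, with 8 of 12 lower, and to 30.5 to 46.6 CPM in CD41neg KO against 195 to 888 CPM in CD41neg WT libraries, with 7 of 12 lower. Lepr, a stromal receptor gene, averaged 1.73 CPM in CD41pos KO and 5.44 CPM in CD41pos WT, and 0.818 CPM in CD41neg KO and 8.17 CPM in CD41neg WT libraries. The basophil and mast cell markers were lower for 3 of the 5 tested in each gate; Prss34, a basophil protease gene, averaged 0.633 CPM in CD41pos KO and 274 CPM in CD41pos WT, and 0.588 CPM in CD41neg KO and 241 CPM in CD41neg WT libraries. Monocyte and macrophage markers were lower for 2 of 10 in each gate. Of the B and plasma cell markers 1 of 4 was lower in KO in each gate, and of the T and NK cell markers 1 of 6 was lower in CD41pos KO and 0 of 6 in CD41neg KO cells. Single calls in such short lists are not read as a change of the cell type. No listed marker was at 0 in all libraries of a group. The part of these cells in the results was not tested, and in bulk samples fewer cells of a type and less RNA per cell cannot be told apart.

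Tfpi, the inhibitor of tissue factor and factor Xa, was at 26.6, 27.3 and 27.5 CPM in CD41neg KO libraries, against 54.2, 51.9 and 40.9 CPM in CD41neg WT libraries. In CD41pos cells it was at 30.3, 32.8 and 28.1 CPM in KO, against 36.6, 29.6 and 39.1 CPM in WT libraries. The CD41neg WT libraries were above all other 9, and the genotypes overlapped in CD41pos cells. In CD41neg cells KO and WT did not overlap for 35.5% of all genes tested. Tfpi was 1.81-fold lower in CD41neg KO cells (log2 fold change -0.85 ± 0.15, adjusted p = 0.0099), while the CD41pos value was -0.21 ± 0.15 (adjusted p = 0.351); the interaction, 0.64 ± 0.22, did not pass (adjusted p = 0.819). The CD41neg call was lost on TPM values (limma on log2(TPM + 1), -0.57, adjusted p = 0.128) and without both KO 2 libraries (-0.86, adjusted p = 0.0518). In WT mice the CD41pos minus CD41neg difference of -0.48 ± 0.15 did not pass by edgeR (adjusted p = 0.0883) and did by DESeq2 (-0.50, adjusted p = 0.0383).

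Endothelial markers were lower in the same comparison as Tfpi. Of the 10, 7 were lower in CD41neg KO than in CD41neg WT cells (against 3.97% of all genes tested). In CD41pos cells 1 was lower in KO than in WT (against 7.27%). Their sum was 126 to 252 CPM in CD41neg KO against 313 to 364 CPM in CD41neg WT libraries, and 231 to 275 CPM in CD41pos KO against 200 to 300 CPM in CD41pos WT libraries. Cdh5, the endothelial cadherin gene, averaged 0.418 ± 0.276 CPM in CD41neg KO and 4.81 ± 1.96 CPM in CD41neg WT libraries (SD, n = 3 each). Tfpi, Procr and Thbd are also made by endothelium, and the part of these cells in the Tfpi result was not tested.

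F5, which encodes the cofactor of factor Xa, was at 23.2, 33.7 and 32.3 CPM in CD41pos KO libraries, against 14.5, 4.49 and 11.4 CPM in CD41pos WT libraries. In CD41neg cells it was at 9.25, 3.49 and 6.54 CPM in KO, against 4.25, 8.01 and 1.72 CPM in WT libraries. The CD41pos KO libraries were above all other 9, and the genotypes overlapped in CD41neg cells. KO and WT did not overlap in CD41pos cells for 44.3% of all genes tested. The CD41pos log2 fold change of 1.55 ± 0.53 missed the threshold (adjusted p = 0.0635). It passed by DESeq2 (1.57, adjusted p = 0.0120) and without the low-count filter (1.58, adjusted p = 0.0370). With 1 library left out it passed in 2 of 12 fits, with adjusted p-values from 0.0365 to 0.162. Without the 4 WT libraries that stood apart it was 2.82, against CD41pos WT library 3 alone, the lowest of its group at 4.49 CPM. The CD41neg value was 0.47 ± 0.53 (adjusted p = 0.611).

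Between the gates F5 was 2.51, 9.66 and 4.93 times as high in the CD41pos as in the CD41neg library of KO labels 1, 2 and 3. The log2 difference of 2.21 ± 0.55 missed the threshold (adjusted p = 0.0529), and with the KO label as a block it passed (2.28 ± 0.35, adjusted p = 0.0120). Without the block and with 1 library left out it passed in 3 of 12 fits, with adjusted p-values from 0.0226 to 0.189. In WT mice the difference was 1.12 ± 0.53 (adjusted p = 0.247). Megakaryocyte and platelet markers were higher in CD41pos than in CD41neg cells for 7 of 10 genes in KO mice (against 1.56% of all genes tested). In WT mice 8 of 10 were higher (against 2.72%). These markers summed to 2209 to 2556 CPM in CD41pos KO and 1651 to 1789 CPM in CD41pos WT libraries. In CD41neg cells they summed to 648 to 779 CPM in KO and 428 to 616 CPM in WT libraries. The list includes Itga2b, the CD41 gene used for the gate, so its calls between the gates follow from the sort. Itga2b alone averaged 1117 CPM in CD41pos KO and 620 CPM in CD41pos WT libraries. Its means were 247 CPM in CD41neg KO and 103 CPM in CD41neg WT libraries. The F5 exons share 262 bases with Gm16548, a non-coding RNA gene on the opposite strand, and the library kit does not mark strand, so reads there cannot be told apart.

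**Figure D4:**
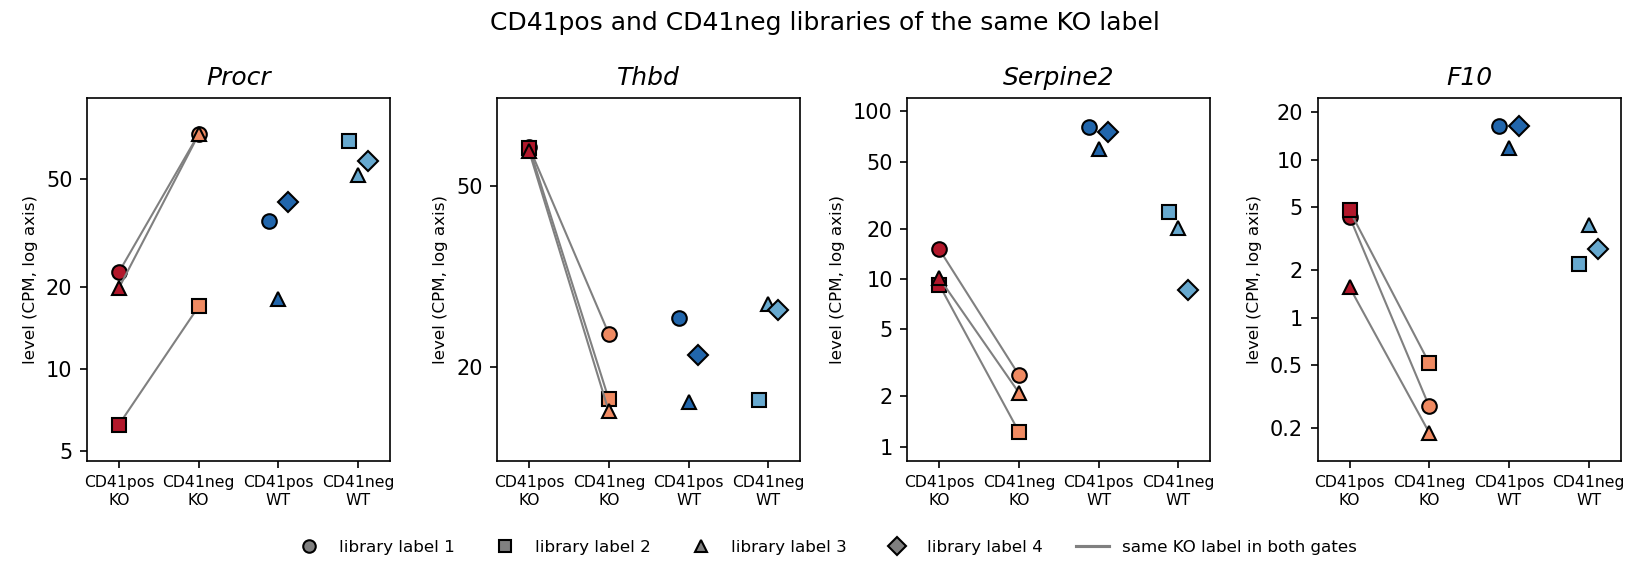
Levels in CPM (logarithmic axes) of Procr, Thbd, Serpine2 and F10; lines join the CD41pos and CD41neg libraries of the same KO label, and WT libraries stand beside them unjoined. Procr is lower in CD41pos for each KO label, including label 2 with 6.24 and 17.0 CPM, and the other 3 genes are higher.

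Plaur, the urokinase receptor gene, was at 14.3, 12.5 and 17.9 CPM in CD41pos KO libraries, against 13.5, 30.0 and 13.3 CPM in CD41pos WT libraries. It was at 20.5, 8.20 and 17.9 CPM in CD41neg KO libraries, against 8.90, 27.1 and 9.36 CPM in CD41neg WT libraries. The highest 2 values were those of WT library 3 in the 2 gates, and the other 4 WT libraries are those that stood apart. None of the comparisons passed; the log2 fold change of KO over WT was -0.35 ± 0.47 in CD41pos (adjusted p = 0.636) and 0.04 ± 0.47 in CD41neg cells (adjusted p = 0.966), with intervals from -1.37 to 0.68 and from -0.99 to 1.07. A term for the 4 WT libraries was -1.37 ± 0.30 for Plaur (adjusted p = 0.0746), and with that term the CD41pos change was -1.15 and passed (adjusted p = 0.0375). For Plau, the urokinase gene, the highest library was CD41pos WT 4 with 43 counts and CD41neg KO 2 had none, and no comparison passed (adjusted p from 0.322 to 0.999).

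The order of group means in TPM differed between the genes. Procr averaged 21.1 ± 11.4 TPM in CD41pos KO and 37.2 ± 18.5 TPM in CD41pos WT, and 73.0 ± 44.5 TPM in CD41neg KO and 70.7 ± 14.3 TPM in CD41neg WT libraries (SD, n = 3 each), and KO and WT overlapped in each gate. Thbd and F5 were highest in CD41pos KO, with 55.1 ± 0.252 TPM and 13.5 ± 2.72 TPM (SD, n = 3 each), and their other 3 groups overlapped in CPM. F10 averaged 2.30 ± 1.14 TPM in CD41pos KO and 8.67 ± 2.75 TPM in CD41pos WT, and 0.20 ± 0.10 TPM in CD41neg KO and 1.77 ± 0.551 TPM in CD41neg WT libraries (SD, n = 3 each). Its order was CD41pos WT, CD41pos KO, CD41neg WT, CD41neg KO, with an overlap between CD41pos KO and CD41neg WT only. Tfpi was lowest in CD41neg KO, at 4.53 ± 0.153 TPM, and highest in CD41neg WT, at 7.33 ± 1.63 TPM (SD, n = 3 each).

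The genes nearest in pattern were looked up among 10630 genes with a mean of at least 5 CPM, by the root mean square difference of centred log2(CPM + 1) over the 12 libraries. Serpine2 lay nearest to Ly6c2 (0.47), a monocyte surface antigen gene, then to Hp (0.57), which encodes haptoglobin, and Trem3 (0.59), a myeloid receptor gene. F10 lay nearest to Trem3 (0.45), Rbpms2 (0.46) and Fkbp11 (0.57). Procr lay nearest to Osgin1 (0.30), Laptm4b (0.33) and Sytl1 (0.36). Thbd lay nearest to Jam3 (0.32), a junctional adhesion gene, St3gal2 (0.33) and Slfn2 (0.37), and F5 to Ctnnal1 (0.38), Sla (0.38) and Fli1 (0.41), the last a transcription factor gene of megakaryocytes. Tfpi lay nearest to Dvl1 (0.15) and Plaur to Marcksl1 (0.21). These distances describe the 12 libraries, which share group and library effects, and Ly6c2 is itself on the monocyte marker list.

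The wider pathway was taken as 48 other genes, of which 34 passed the low-count filter. In CD41pos cells 4 were higher in KO and 2 lower, with a median log2 fold change of -0.02; the calls made up 17.6% of the 34, against 17.1% of all genes tested. In CD41neg cells 3 were higher in KO and 2 lower, with a median of -0.18 (14.7%, against 7.82% of all genes). Between the gates of KO mice 3 were higher in CD41pos cells, with a median of 0.19 (8.82%, against 2.79%). Between the gates of WT mice 3 were higher and 2 lower in CD41pos cells, with a median of 0.33 (14.7%, against 5.59%). The list was not tested as a set, and nothing particular to it is read from these shares. The genes of the liver-made plasma proteins Proc, F9, F11, F12, Fga, Fgb and Fgg were among the 14 that did not pass the filter, and Plg and F7 averaged at most 0.344 and 0.214 CPM in any group.

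The thrombin receptor genes gave several of these calls. F2r, which encodes the receptor PAR1, averaged 770 ± 99.8 CPM in CD41pos KO and 283 ± 105 CPM in CD41pos WT, and 385 ± 126 CPM in CD41neg KO and 146 ± 27.2 CPM in CD41neg WT libraries (SD, n = 3 each). It rose in KO cells of both gates, by 1.45 ± 0.29 (adjusted p = 0.0083) and 1.40 ± 0.29 (adjusted p = 0.0156) on the log2 scale. F2rl2, which encodes PAR3, a thrombin receptor of mouse platelets, averaged 112 ± 19.4 CPM in CD41pos KO and 49.1 ± 4.25 CPM in CD41pos WT, and 17.5 ± 5.14 CPM in CD41neg KO and 3.42 ± 2.30 CPM in CD41neg WT libraries (SD, n = 3 each). Its log2 fold change of KO over WT was 2.35 ± 0.43 in CD41neg cells (adjusted p = 0.0102), and it was higher in CD41pos than in CD41neg cells of KO (2.68 ± 0.43, adjusted p = 0.0052) and WT mice (3.84 ± 0.46, adjusted p = 0.0011). F2rl3, which encodes PAR4, was higher in CD41pos than in CD41neg WT cells (0.99 ± 0.23, adjusted p = 0.0283). F2rl1, named to complete the count, was lower in CD41neg KO cells, with means of 0.0812 CPM in CD41neg KO and 0.649 CPM in CD41neg WT libraries.

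Pros1, which encodes protein S, the cofactor of activated protein C, was at 42.9, 61.3 and 59.5 CPM in CD41pos KO libraries, against 25.5, 8.08 and 24.0 CPM in CD41pos WT libraries. It was at 11.5, 7.60 and 10.9 CPM in the CD41neg KO libraries and at 14.0, 12.7 and 10.4 CPM in the CD41neg WT libraries. The CD41pos KO libraries were above the other 9, as for Thbd and F5, where KO and WT of that gate did not overlap for 44.3% of all genes tested. The log2 fold change was 1.51 ± 0.35 for CD41pos KO over CD41pos WT (adjusted p = 0.0155) and 2.45 ± 0.36 for CD41pos KO over CD41neg KO (adjusted p = 0.0035). Itgb2, the integrin beta subunit that the plasminogen-binding receptor Mac-1 shares with other leukocyte integrins, rose by 1.45 ± 0.22 on the log2 scale in CD41pos KO cells (adjusted p = 0.0030) and by 0.94 ± 0.22 in CD41neg KO cells (adjusted p = 0.0245). Itgam, the alpha subunit particular to Mac-1, averaged 8.96 ± 1.61 CPM in CD41pos KO and 9.99 ± 6.94 CPM in CD41pos WT, and 18.0 ± 4.55 CPM in CD41neg KO and 13.7 ± 3.51 CPM in CD41neg WT libraries (SD, n = 3 each); KO against WT it did not pass in CD41pos (-0.16, adjusted p = 0.815) or CD41neg cells (0.39, adjusted p = 0.571). Ggcx, the carboxylase that vitamin K-dependent factors such as F10 and protein S need, averaged 35.9 ± 3.05 CPM in CD41pos KO and 25.1 ± 2.61 CPM in CD41pos WT libraries (SD, n = 3 each; log2 fold change 0.51 ± 0.15, adjusted p = 0.0371); it was named after its values were seen.

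Vwf, the platelet adhesion factor and carrier of factor VIII, was higher in CD41pos than in CD41neg cells of KO mice (263 ± 56.7 CPM and 32.8 ± 11.1 CPM, SD, n = 3 each; log2 difference 3.004 ± 0.504, adjusted p = 0.0070) and of WT mice (190 ± 87.2 CPM and 45.8 ± 30.4 CPM, SD, n = 3 each; 2.05 ± 0.49, adjusted p = 0.0302). F8, which encodes factor VIII, was lower in CD41pos than in CD41neg WT cells (-1.94 ± 0.48, adjusted p = 0.0356), and so was Lman1, the cargo receptor that carries factors V and VIII out of the endoplasmic reticulum (-0.57 ± 0.12, adjusted p = 0.0202). Kng1, a kininogen gene, was lower in KO cells of both gates, with 0.173 ± 0.137 CPM in CD41pos KO and 1.78 ± 0.541 CPM in CD41pos WT, and 0.126 ± 0.0275 CPM in CD41neg KO and 1.72 ± 1.28 CPM in CD41neg WT libraries (SD, n = 3 each). Kng2 was lower in CD41pos KO cells (-4.04 ± 1.15, adjusted p = 0.0330); the 2 kininogen genes are close copies, so reads may be split between them.

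**Figure D5:**
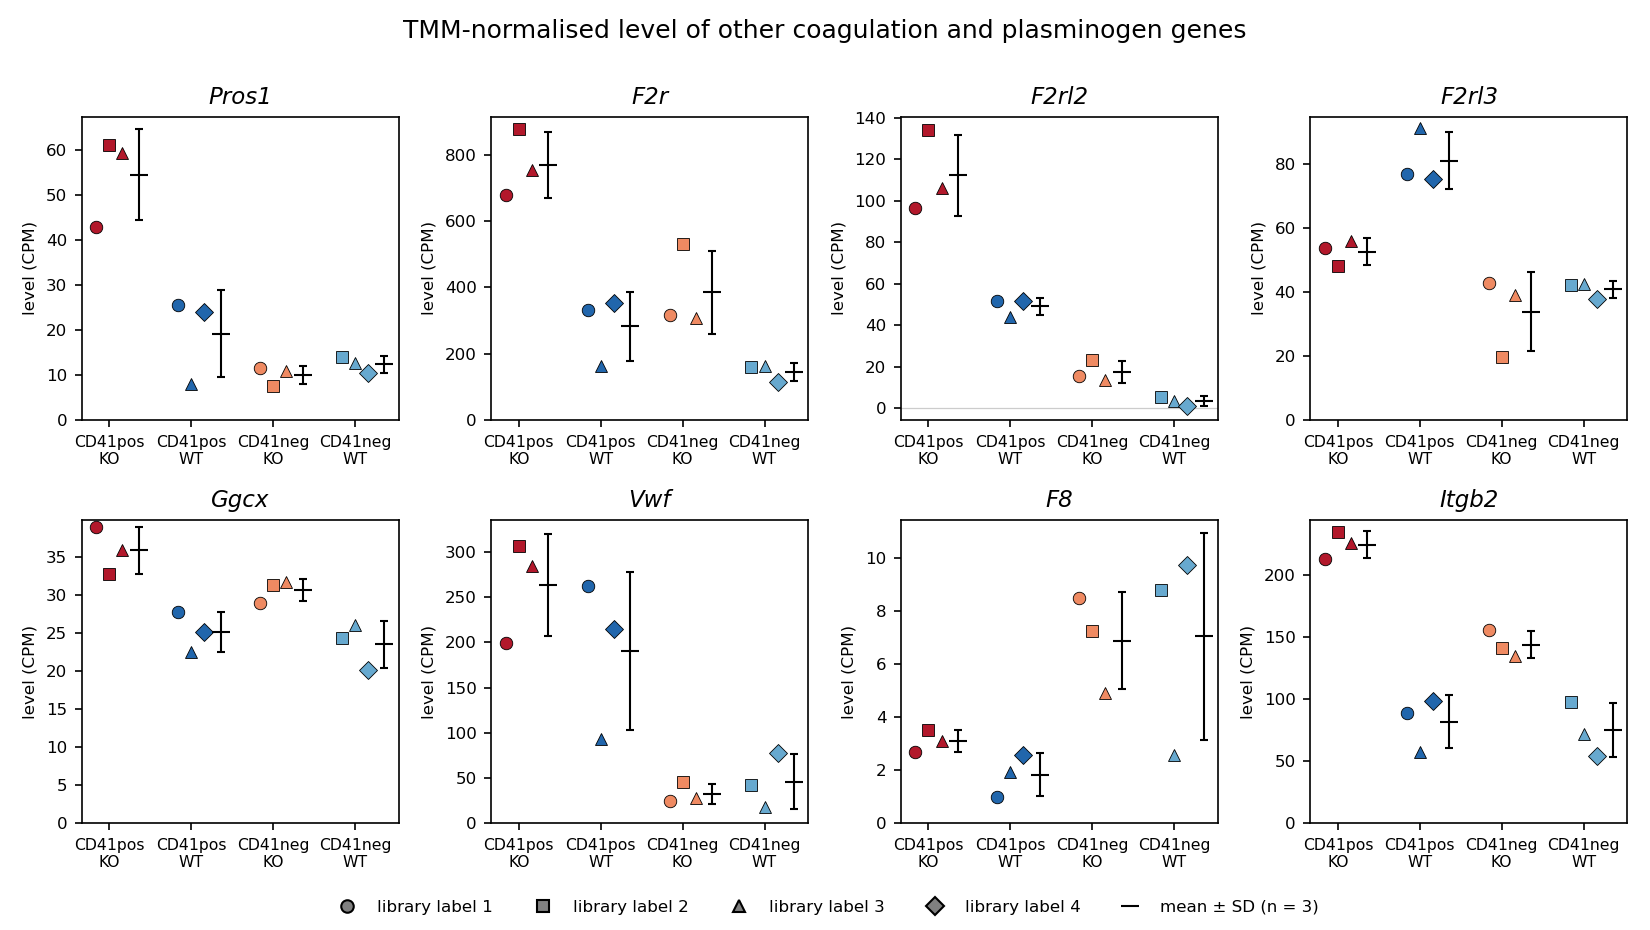
Levels in CPM (vertical axis, a scale of its own for each gene) of 8 other coagulation and plasminogen genes in each of the 12 libraries, by group; symbols give the library label, bars the group mean ± SD. Pros1 lies at 42.9 to 61.3 CPM in CD41pos KO libraries and at no more than 25.5 CPM elsewhere, and F2r is higher in KO than in WT libraries of each gate.

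The counts of the wider list depended on single libraries, and so did the counts over all genes tested. With any 1 library left out, the all-gene counts ran from 965 to 4076 in CD41pos and from 341 to 3856 in CD41neg cells. With all 12 libraries they were 3309 and 1517. Between the gates they ran from 196 to 1041 in KO mice (541 with all 12) and from 442 to 1166 in WT mice (1084 with all 12). Nothing particular to the list is read from the changes below. In CD41pos cells the 6 calls between KO and WT became 3 without CD41pos KO 2 and 2 without CD41pos KO 3. In CD41neg cells the 5 calls became 3, 1 and 2 without CD41neg KO 1, 2 and 3, and 2 without CD41neg WT 4. Between the gates of KO mice the 3 calls became 5 without CD41pos WT 3, and 9 (6 higher and 3 lower) with the KO label as a block, against the 12.4% of all genes given above. Between the gates of WT mice the 5 calls became 2 without CD41pos KO 3, 3 without CD41pos WT 1, and 1, 3 and 2 without CD41neg WT 2, 3 and 4. Without both KO 2 libraries the 4 counts were 3, 0, 0 and 5.

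All 8 genes are protein-coding in GENCODE vM21 on GRCm38. Procr lies on chromosome 2 at chr2:155751117-155755471 (plus strand), Thbd at chr2:148404466-148408188 (minus strand, 1 exon) and Tfpi at chr2:84432855-84476775 (minus strand). Serpine2 lies at chr1:79794197-79861180 (minus strand), F5 at chr1:164151838-164220277 (plus strand), F10 at chr8:13037308-13056676 (plus strand), Plau at chr14:20836660-20843385 (plus strand) and Plaur at chr7:24462484-24475968 (plus strand). The exons of the other 7 overlapped no other annotated gene. Reads were counted over exons, including untranslated regions where the authors' annotation holds them.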

How the data were processed

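RNA from sorted mouse bone marrow HSCs was extracted with miRNeasy Micro and made into libraries with SMART-Seq v4, per the labels' protocols. Per the submitters' processing notes, the authors used STAR 2.6.1e, featureCounts 1.6.2, cutadapt 1.9.1 and FastQC 0.11.7 with mm10; the notes give no roles, order or annotation. The authors deposited raw counts per gene and TPM values, which allow for gene length, for 35869 genes in 12 libraries. 27 gene names that the count table showed as dates were taken from the TPM table.

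The counts were fitted with edgeR 4.0.16 (R 4.3.3): TMM scaling, filterByExpr (19395 genes kept), 4 group means over all 12 libraries, quasi-likelihood tests of 5 contrasts, adjusted p below 0.05; SE is the log2 fold change over the root of F. The fit was also run on simulated counts, with 1 dispersion for all genes set below the common dispersion of these libraries (0.1234). Nothing is read from that run. DESeq2 1.42.0, limma 3.58.1 on log2(TPM + 1) and log2(TPM + 0.1), other filters, scaling and library sets, and blocks were alternatives. KO labels were taken to pair the gates, since deviations from group means correlated at 0.46, 0.63 and 0.47 (11386 genes with a mean of at least 5 CPM); WT labels 3 and 4 gave 0.15 and -0.46. No 2 libraries of a group were identical. The 8 genes, the 3 pathway lists and the marker lists were chosen with earlier results of these data known. Named pathway genes had an adjusted p below 0.05 and at least 1 CPM on average in the higher group, at most 5 per comparison; Itgam, Ggcx and F2rl1 fall outside this rule and were named after their values were seen. Igkc is not reported here.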

Additional observations from a re-analysis of the deposited data

How the results depend on the processing

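The number of the 8 genes called moved by more than 1.5 times in 6 cases. The share of all genes called moved between settings as well, so nothing about the 8 genes is read from these counts. The CD41neg KO against WT count of 3 became 1 on log2(TPM + 1) values with limma. The interaction count of 0 became 1 by DESeq2, whose count over all genes is given above. The interaction and WT gate counts also moved without the 4 WT libraries that stood apart. That fit leaves 1 WT library per gate, and its counts are not read. The WT gate count of 2 became 1 with the library label as a replicate block. Only WT labels 3 and 4 occur in both gates, and their deviations correlated at 0.15 and -0.46. The values thus do not back the label as a pairing of WT libraries, and nothing is read from that fit. The KO gate count of 3 became 5 with the replicate block, when 12.4% of all genes tested passed, against 2.79% in the main fit. In 14 other cases a count changed by 1 (11 up, 3 down); by DESeq2 it was 4, 3, 4 and 3 for CD41pos, CD41neg, KO gates and WT gates. With single libraries left out the counts were 3 to 4 (CD41pos KO against WT), 3 to 3 (CD41neg), 3 to 4 (KO gates), 2 to 2 (WT gates) and 0 to 0 (interaction). With the replicate number as a block, which KO and WT share only as a number (correlations of -0.05 and 0 in CD41pos, -0.30 and 0.13 in CD41neg), both KO against WT counts stayed at 3. In the WT gate comparison the block left Serpine2 (2.35) and not F10 (2.12, adjusted p = 0.0529).

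31 values changed sign, and none of them had passed. A term for those 4 libraries gave Procr 0.31 and Plaur -0.67 (both CD41neg KO against WT). Without those libraries they were Tfpi at 0.13 (CD41pos KO against WT), Procr at 0.072, F5 at -0.32 and Plaur at -0.80 (CD41neg KO against WT), F5 at -0.91 and Plau at -0.32 (WT gates), and Plau at 1.30 (interaction). The F10 interaction was -0.38 on log2(TPM + 1), the replicate block gave Plaur -0.038 (CD41neg KO against WT) and 0.012 (KO gates), and without both KO 2 libraries, a setting chosen after seeing the data, Procr was 0.29 (CD41neg KO against WT) and Plau -0.031 (KO gates). With single libraries left out the log2 values ran, for Plaur, from -0.53 to 0.15 (CD41pos KO against WT), -0.22 to 0.78 (CD41neg), -0.37 to 0.21 (KO gates), -0.17 to 1.06 (WT gates) and -1.09 to 0.11 (interaction), for Procr from -0.40 to 0.29 (CD41neg KO against WT) and for the Plau interaction from -1.46 to 0.74. The cause was not tested. Plau, at 0 to 43 counts, and the 3 libraries per group limit what could be detected.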
